A study of Mus musculus with 10 samples.

Results

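The 27 genes described here encode enzymes of sterol synthesis, from acetoacetyl-CoA to cholesterol, and proteins that control or serve that pathway through the transcription factor SREBP2. They were taken by name from a list, with Ensembl identifiers matched to mouse symbols, and all 27 were found among the 55414 gene identifiers of the deposited tables. Messenger RNA was sequenced from mouse macrophages that flow cytometry had separated by whether they had engulfed apoptotic cells (Eff+) or had engulfed none (Eff-). Wound Eff+ and wound Eff- macrophages (3 libraries each) came from skin wounds taken 3 days after injury in LysMCreER/mTmG mice treated with tamoxifen for 6 days, with both groups from that genotype and treatment. In these mice a tamoxifen-inducible Cre made from the lysozyme M locus, which is active in neutrophils as well as macrophages, switches a membrane reporter from red to green. Culture Eff+ and culture Eff- macrophages (2 libraries each) were wild type, grown out of bone marrow with GM-CSF for 7 days, and labelled as given apoptotic fibroblasts for 12 h. The count columns of the culture Eff- libraries carry the letters NOAC, so it is unclear whether those cells had met apoptotic cells.

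Cholesterol is built from acetyl units through mevalonate, isoprenoid diphosphates, squalene and lanosterol. When sterols in the endoplasmic reticulum run low, the escort protein SCAP carries SREBP2 to the Golgi apparatus, where the site-1 protease encoded by Mbtps1 begins its release, and the freed factor turns on most genes of the pathway. When sterols are plentiful, the INSIG proteins hold SCAP in the endoplasmic reticulum. A macrophage that digests an engulfed cell takes in that cell's cholesterol.

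Libraries held 39735437 to 57308823 counts from the wound and 17622740 to 27261880 from culture. All 27 genes passed the filter on low counts in both models. Nothing in the labels ties a replicate to its own animal or culture. The p-values therefore measure the spread between these libraries, and the labels do not say whether that spread is biological or technical. Counts of replicates within a group differed by a chi-square per degree of freedom of 78.9 to 250 in the wound. In culture the values were 230 for Eff+ and 460 for Eff-, where read sampling alone gives about 1. Among 12 macrophage markers, Cd68 had 1025 to 1128 CPM (counts scaled to library size with TMM factors) in wound Eff+ and 1399 to 1455 in wound Eff- libraries. Neutrophil markers stood out in the wound: all 14 were tested, 12 rose, and their summed share of a library was 3.03, 3.06 and 2.68% for Eff+ replicates 1, 2 and 3, against 0.808, 0.468 and 0.803% for Eff-. None of the 14 was at 0 throughout a group. Lyz2, the lysozyme M gene, had 4.97, 3417 and 8.90 CPM in wound Eff+ libraries 1, 2 and 3, against 3.93, 6565 and 3.67 CPM in Eff- libraries, so both libraries numbered 2 stood apart from the others. In culture, replicate 1 detected 35649 genes in the Eff+ library and 44836 in the Eff- library, while replicate 2 detected 19649 in Eff+ and 18171 in Eff-, so the replicate numbers stand apart.

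Promoter sequence was described apart from any expression value. RefSeq start-site windows (GRCm38.p6, 250 bases before to 50 after the start) were at hand for 23 of the 27 genes. The sterol regulatory element was searched on both strands in the form TCACNCCAC only. A match was found in the window of 1 of them, Hmgcs1 (4.35%, against 1.44% of all 27025 genes with a window), with its first base at position -137 from the start. The CCAAT box, bound by NF-Y, was in 19 (82.6%, against 41.1% of all genes) and the GC box GGGCGG in 20 (87.0%, against 38.2%). All members passed the filter on low counts, and no share among only the genes that passed it was computed. Shown are Hmgcs1, with its sterol element, and the 3 genes that passed the test in the wound, none of which has that motif in its window, with TCACNCCAC, CCAAT and GGGCGG matches in capitals on either strand. A match describes letters, not binding, and its absence says nothing of other windows or of sterol elements that differ from TCACNCCAC.
Hmgcs1, chr13:119690101-119690400, plus strand: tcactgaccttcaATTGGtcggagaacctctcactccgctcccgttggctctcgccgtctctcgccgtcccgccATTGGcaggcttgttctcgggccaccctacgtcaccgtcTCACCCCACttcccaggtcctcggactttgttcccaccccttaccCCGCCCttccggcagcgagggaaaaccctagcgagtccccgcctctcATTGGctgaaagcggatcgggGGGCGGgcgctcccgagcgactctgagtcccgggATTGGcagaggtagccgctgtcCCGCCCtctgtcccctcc
Sc5d, chr9:42264251-42264550, minus strand: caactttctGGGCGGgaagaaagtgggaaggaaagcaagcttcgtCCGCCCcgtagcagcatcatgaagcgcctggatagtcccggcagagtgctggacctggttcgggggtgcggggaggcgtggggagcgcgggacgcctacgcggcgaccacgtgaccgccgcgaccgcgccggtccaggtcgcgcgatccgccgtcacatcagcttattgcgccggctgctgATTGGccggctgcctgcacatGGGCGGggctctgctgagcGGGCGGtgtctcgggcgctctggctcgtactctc
Lbr, chr1:181842352-181842651, minus strand: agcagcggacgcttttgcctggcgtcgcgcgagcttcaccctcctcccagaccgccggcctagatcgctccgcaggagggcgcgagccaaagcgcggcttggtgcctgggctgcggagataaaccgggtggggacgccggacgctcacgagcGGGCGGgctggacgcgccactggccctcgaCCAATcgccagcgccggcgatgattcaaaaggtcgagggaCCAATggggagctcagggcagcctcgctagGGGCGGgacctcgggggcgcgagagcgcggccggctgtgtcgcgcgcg
Aacs, chr5:125475623-125475922, plus strand: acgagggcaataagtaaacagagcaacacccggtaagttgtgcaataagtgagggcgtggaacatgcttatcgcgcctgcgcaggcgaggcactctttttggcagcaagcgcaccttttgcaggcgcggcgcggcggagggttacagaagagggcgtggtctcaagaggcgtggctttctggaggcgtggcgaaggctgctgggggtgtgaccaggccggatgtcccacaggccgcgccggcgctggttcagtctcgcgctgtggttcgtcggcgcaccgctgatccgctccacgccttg

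The first comparison asked how the sterol pathway of wound macrophages that had engulfed apoptotic cells compared with that of macrophages that had not. Sc5d, Lbr and Aacs rose in the wound Eff+ libraries, and no member fell. These 3 of 27 genes make 11.1% of the members, while 11.2% of all 14908 tested genes were called (7.39% higher and 3.79% lower; edgeR quasi-likelihood test, Benjamini-Hochberg adjusted p below 0.05). The members as a whole were thus called about as often as genes at large, and their median log2 fold change was 0.06, against -0.03 over all genes. Values above 0 were found for 14 genes (51.9%, against 48.7% of all genes). Groups did not overlap for 8 of the 27 (29.6%, against 36.8% of all genes), 4 with all Eff+ libraries above (18.7% of all genes) and 4 with all below (18.1%).

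Sc5d (ENSMUSG00000032018, GRCm39 chromosome 9, 42162891 to 42175552, minus strand) encodes the desaturase that places the C5 double bond late in the pathway. It had 125, 101 and 84.5 CPM in wound Eff+ libraries 1, 2 and 3, against 30.4, 29.3 and 34.7 CPM in wound Eff- libraries. The lowest Eff+ library was far above the highest Eff- library. Means were 103 ± 20.1 and 31.4 ± 2.86 CPM (SD, n = 3 each), a log2 fold change of 1.72 (SE 0.19, edgeR adjusted p = 0.0097), which is 3.29-fold. Lbr (ENSMUSG00000004880, chromosome 1, 181642900 to 181670611, minus strand) encodes the lamin B receptor, an inner nuclear membrane protein that also has sterol C14 reductase activity and is known for its part in shaping the lobed neutrophil nucleus. It had 234, 229 and 163 CPM in Eff+ libraries, against 114, 78.5 and 71.3 CPM in Eff- libraries, with a log2 fold change of 1.25 (SE 0.24, edgeR adjusted p = 0.021). A stretch of 440 bases of its exons is shared with Dnah14, which had at most 14 counts in Eff+ and 16 in Eff- libraries. Tm7sf2, the other gene for a C14 reductase, was not among the called genes, at 4.68, 2.68 and 2.37 CPM in Eff+ and 3.73, 3.08 and 4.27 CPM in Eff- libraries. Aacs (ENSMUSG00000029482, chromosome 5, 125552878 to 125594474, plus strand) encodes the cytosolic enzyme that activates acetoacetate for lipid synthesis. It had 18.4, 21.3 and 21.6 CPM in Eff+ libraries, against 11.01, 13.5 and 11.9 CPM in Eff- libraries, and its log2 fold change was 0.75 (SE 0.19, edgeR adjusted p = 0.044).

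Markers of several cell types moved in the same Eff+ libraries. Beside the neutrophil list, 2 of 11 fibroblast markers rose, with summed shares of counts of 0.0692 to 0.232% in Eff+ and 0.0250 to 0.140% in Eff- libraries. Of 9 keratinocyte markers 5 were tested and 3 rose, with 0.00361 to 0.00602% in Eff+ and 0.000575 to 0.00195% in Eff- libraries, and Krt1, Krt5, Krt6a, Krt14, Krt17 and Dsp were at 0 in all Eff- libraries. Of 8 muscle and adipocyte markers 6 were tested and 1 rose, with 0.00150 to 0.00542% in Eff+ and 0.000435 to 0.00203% in Eff- libraries. Among the 12 macrophage markers, 6 fell, C1qa, C1qb and Adgre1 among them, and Cd14 rose, with a median log2 fold change of -0.95, while their summed share was 2.10 to 2.54% in Eff+ and 1.90 to 2.06% in Eff- libraries. No dendritic, T or NK cell marker passed by edgeR, with 2 of the 8 dendritic cell markers and none of the 3 tested T and NK cell markers at an unadjusted p below 0.05. The part of these cell types in the values of Sc5d, Lbr and Aacs was not tested. In bulk samples, a change in the mix of cells and a change in RNA per cell cannot be told apart. Without Eff+ library 2 no member passed, and none of 15804 genes did by edgeR, where 3260 had an unadjusted p below 0.05 and the smallest adjusted p was 0.058. The log2 fold changes stayed at 1.73, 1.18 and 0.72 for Sc5d, Lbr and Aacs. Sc5d alone passed without Eff- library 2 or 3, Sc5d and Lbr without Eff+ library 3 or Eff- library 1, and Aacs passed in none of the fits with a library left out. Without Eff+ library 1, Srebf2 passed beside Sc5d and Lbr, at 1.26. Without both libraries numbered 2, none of 15223 genes passed by edgeR (2212 at an unadjusted p below 0.05), and log2 fold changes were 1.68 for Sc5d, 1.10 for Lbr and 0.80 for Aacs.

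**Figure D1:**
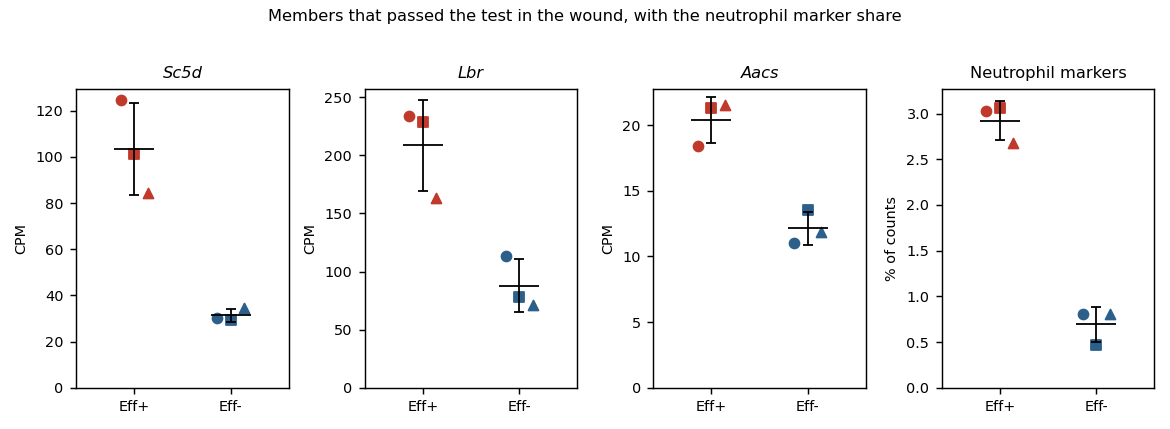
CPM of Sc5d, Lbr and Aacs and the percent of counts in 14 neutrophil markers in wound Eff+ (red) and Eff- (blue) libraries, with circles, squares and triangles for replicates 1, 2 and 3 and black bars for the mean ± SD (n = 3). In each panel all 3 Eff+ libraries lie above all 3 Eff- libraries; Sc5d averaged 103 against 31.4 CPM.

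Of the 9 mevalonate pathway genes, Aacs alone was called, and 7 had positive log2 fold changes (median 0.24). Hmgcs1, HMG-CoA synthase and a classical SREBP2 target, was at 17.5, 47.6 and 27.6 CPM in Eff+ and 20.7, 30.7 and 24.1 CPM in Eff- libraries, with overlapping groups and a log2 fold change of 0.30 (SE 0.35, edgeR adjusted p = 0.62). Library 2 was highest and library 1 lowest in both groups. Ggps1, which makes geranylgeranyl diphosphate for protein prenylation, was at 39.5, 40.8 and 38.3 CPM in Eff+ and 29.7, 33.4 and 37.2 CPM in Eff- libraries. Its groups did not overlap, but its log2 fold change of 0.24 (SE 0.16) did not pass. Ggps1 shares 5.44% of its exon bases with the antisense gene Arid4b, which had 5214 to 7311 counts in Eff+ and 2617 to 3086 in Eff- libraries. Of its transcript, 27.3% has a near-identical copy in Arid4b or Gm5630, so its own value is uncertain. The thiolase gene Acat2 (0.46, SE 0.31), the mevalonate diphosphate decarboxylase gene Mvd (0.24, SE 0.24), the isomerase gene Idi1 (0.27, SE 0.55) and the mevalonate kinase gene Mvk (0.19, SE 0.34) had positive log2 fold changes within about 1.5 SE of 0. Of the Acat2 transcript, 65.6% has a near-identical copy in Acat3 or Tcp1, so its value is uncertain. The same holds for Idi1, with 33.3% of its transcript copied in Gm13502, Gm35570 or Gm48574. Pmvk, phosphomevalonate kinase, was at 19.1, 13.6 and 11.1 CPM in Eff+ and 22.1, 15.2 and 12.7 CPM in Eff- libraries (-0.19, SE 0.29). Fdps, farnesyl diphosphate synthase, had only 17 to 39 counts in Eff+ and 18 to 51 in Eff- libraries. At 95% identity or more over at least 200 bases, 91.4% of its transcript has a copy in 5 other annotated genes, so its low count and its fold change (-0.33, SE 0.73) are uncertain.

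**Figure D2:**
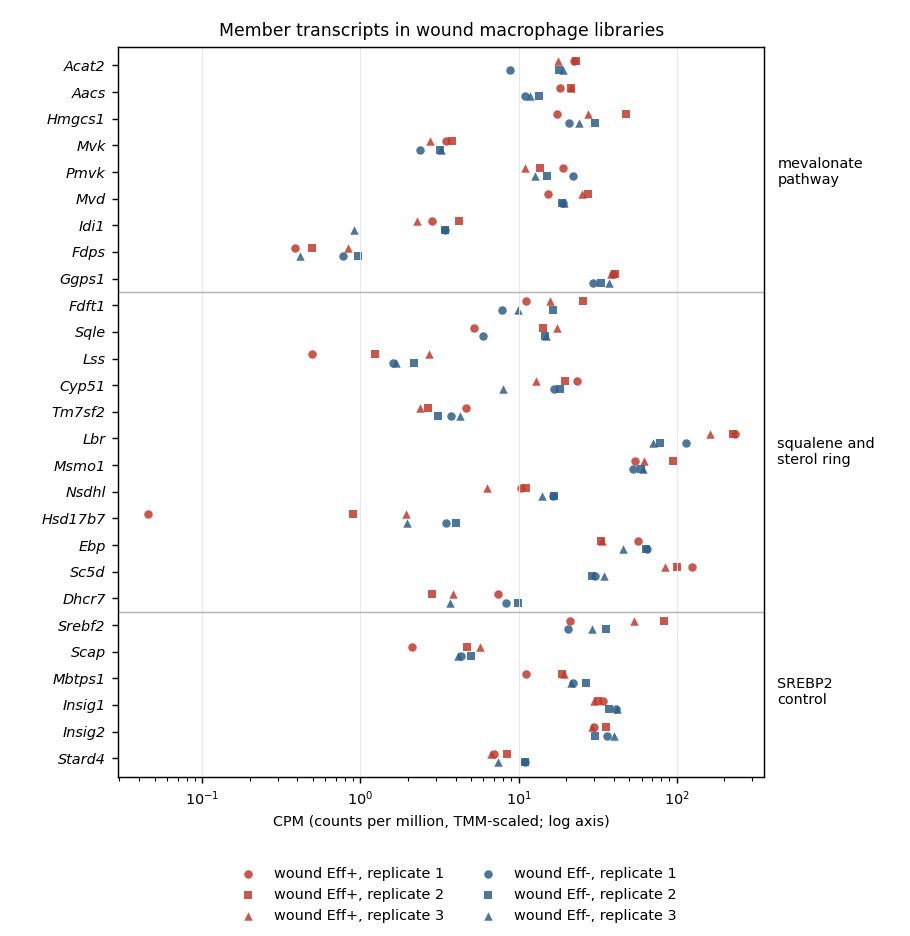
CPM (log axis) of the 27 genes in each wound library, Eff+ in red above Eff- in blue, by step of the pathway. Sc5d and Lbr show a clear gap between the groups, most other genes interleave, and Hsd17b7 has its lowest point in Eff+ library 1.

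Among the 12 squalene and ring enzymes, Sc5d and Lbr were called, and 6 had positive and 6 negative log2 fold changes (median -0.06). Sqle, squalene epoxidase and a rate-controlling step, was at 5.27, 14.3 and 17.6 CPM in Eff+ and 5.94, 14.8 and 14.8 CPM in Eff- libraries (log2 fold change 0.06, SE 0.50). The groups overlapped, and library 1 was lowest in both. Cyp51, the lanosterol demethylase, was at 23.4, 19.7 and 12.8 CPM in Eff+ and 16.8, 18.4 and 7.96 CPM in Eff- libraries (0.37, SE 0.36). Msmo1, the methylsterol oxidase, was at 54.3, 95.2 and 62.4 CPM in Eff+ and 53.2, 59.8 and 60.8 CPM in Eff- libraries (0.29, SE 0.22), where Eff+ library 2 stood above the rest. Lss, lanosterol synthase, was at 0.497, 1.24 and 2.71 CPM in Eff+ and 1.61, 2.19 and 1.68 CPM in Eff- libraries (-0.30, SE 0.65), with Eff+ libraries 1 and 3 the lowest and the highest of all. Dhcr7, which takes the last step of one branch, was at 7.46, 2.83 and 3.83 CPM in Eff+ and 8.34, 9.90 and 3.67 CPM in Eff- libraries (-0.63, SE 0.48). Fdft1, squalene synthase, was at 11.1, 25.5 and 15.9 CPM in Eff+ and 7.85, 16.4 and 9.94 CPM in Eff- libraries (0.62, SE 0.38). It shares 18.8% of its exon bases with the antisense gene Ctsb, which had 287446 to 406728 counts in Eff+ and 490131 to 531207 in Eff- libraries. Of the Fdft1 transcript, 54.7% has a near-identical copy in Ctsb or Gm6781, so its own value is uncertain.

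The C4 demethylation partners of Msmo1 lay on the other side of 0. Nsdhl, the C4 decarboxylase, had 10.3, 11.1 and 6.29 CPM in Eff+ libraries, against 16.4, 16.7 and 14.1 CPM in Eff- libraries. All Eff+ libraries were below all Eff- libraries, but the log2 fold change of -0.77 (SE 0.26) did not pass (edgeR adjusted p = 0.098). Hsd17b7, the 3-ketosteroid reductase of the same complex, had 2, 42 and 90 counts in Eff+ libraries, against 176, 212 and 86 counts in Eff- libraries. On the CPM scale the groups did not overlap, narrowly, at 0.0452, 0.8999 and 1.94 in Eff+ and 3.50, 4.03 and 1.97 in Eff- libraries. Its log2 fold change was -1.72 with an SE of 0.97 (edgeR adjusted p = 0.28), the widest error of the 27. Ebp, the sterol isomerase that acts after these steps and before Sc5d, was at 57.02, 33.3 and 33.5 CPM in Eff+ and 64.7, 64.3 and 46.1 CPM in Eff- libraries (-0.50, SE 0.26), with Eff+ library 1 inside the Eff- range.

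None of the 6 control and transport genes was called in the wound, and 5 had negative log2 fold changes (median -0.25). Srebf2 itself was at 21.2, 83.1 and 53.8 CPM in Eff+ and 20.5, 36.0 and 29.3 CPM in Eff- libraries. Eff+ libraries 2 and 3 were above all Eff- libraries while library 1 was level with its Eff- counterpart, and the log2 fold change was 0.88 (SE 0.45, edgeR adjusted p = 0.23). Insig1, an SREBP2 target that closes the feedback loop, had 34.3, 31.8 and 29.9 CPM in Eff+ libraries, against 41.0, 37.5 and 41.9 CPM in Eff- libraries. Its groups did not overlap, and its log2 fold change was -0.33 (SE 0.15, edgeR adjusted p = 0.18). Insig2, its paralogue with much less dependence on SREBP2, was at 29.9, 35.7 and 29.3 CPM in Eff+ and 36.2, 30.3 and 40.3 CPM in Eff- libraries (-0.17, SE 0.18). Mbtps1, the site-1 protease gene, had 11.1, 18.8 and 19.3 CPM in Eff+ libraries, against 22.1, 26.8 and 21.5 CPM in Eff- libraries. These did not overlap either, at -0.52 (SE 0.25, edgeR adjusted p = 0.22). Scap was at 2.13, 4.74 and 5.71 CPM in Eff+ and 4.35, 4.99 and 4.13 CPM in Eff- libraries (-0.10, SE 0.41), and the sterol carrier gene Stard4 at -0.41 (SE 0.26).

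The scaling bears on these small differences. TMM factors were 0.815 to 0.920 in Eff+ and 1.10 to 1.19 in Eff- libraries. With library totals as the only scaling the median of all genes moved to -0.42, and 3368 of 14908 genes were called, 714 higher and 2654 lower. Of the 27 members 6 were called, Sc5d and Lbr higher and Nsdhl, Insig1, Insig2 and Mbtps1 lower, while Aacs, at 0.36, was not.

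**Figure D3:**
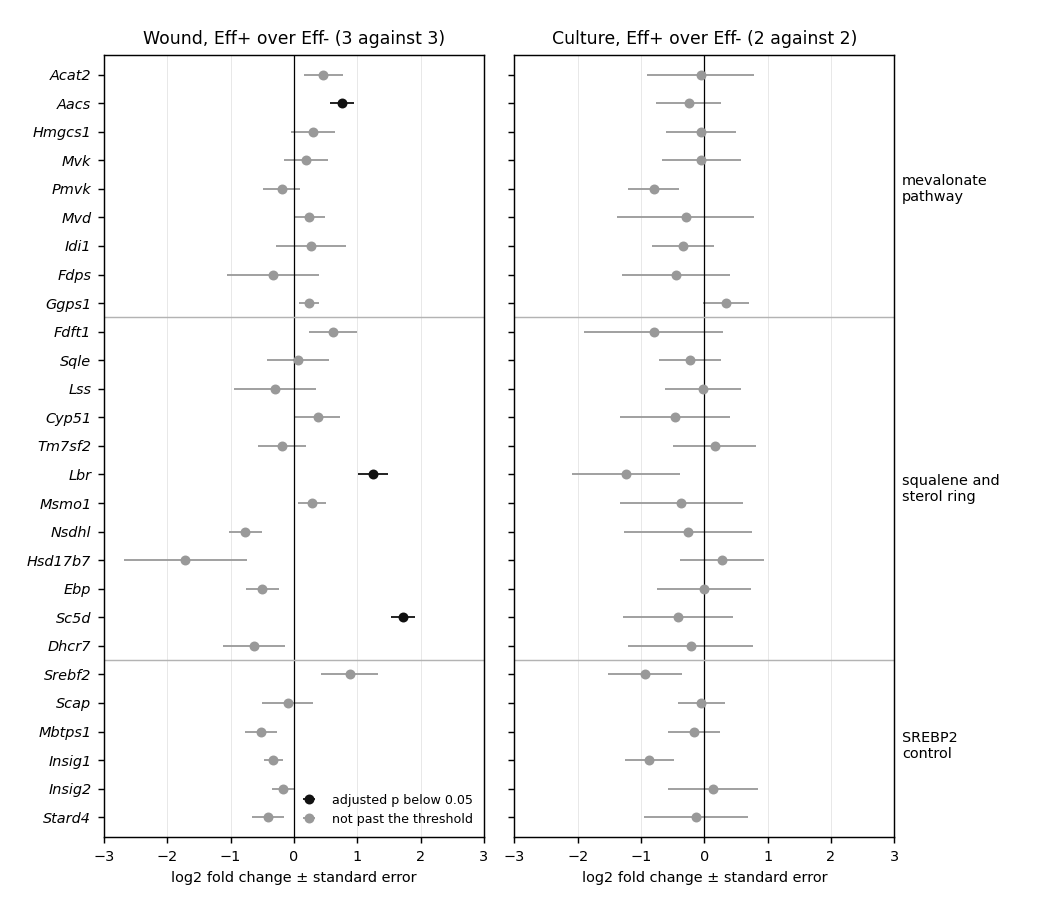
Log2 fold change of Eff+ over Eff- with its standard error for the 27 genes, wound libraries on the left and culture libraries on the right, with black points for genes past an adjusted p of 0.05. Sc5d, Lbr and Aacs are the black points in the wound, and 23 of the 27 culture points lie below 0 with errors of up to 1.09.

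The same comparison in cultured macrophages gave no called member. The edgeR test called 0 of 14867 genes (0%), of which 115 (0.774%) had an unadjusted p below 0.05, and no member was among those 115. DESeq2 called 1 gene and no member. By sign, 23 of the 27 members had negative log2 fold changes (median -0.23, against -0.05 over all genes, of which 46.2% were above 0). Replicate 1 and 2 libraries stood apart for these genes. For 22 of the 27 members the replicate 2 library was above the replicate 1 library in both groups, against 42.0% of the 12220 genes that averaged at least 1 CPM in culture. Within replicate 1, 14 members (51.85%) were lower in Eff+ (median log2 ratio -0.08), and within replicate 2, 22 (81.48%) were (median -0.26). Of the same 12220 genes, 44.63% were lower in Eff+ within replicate 1 (median 0.105) and 52.65% within replicate 2 (median -0.03). With 1 library left out, the members' median ranged from -0.61 to 0.93. Positive members numbered 20 without Eff+ library 1 and 22 without Eff- library 2. Such a fit leaves the replicate numbers unbalanced, so a difference between the numbers can enter these values. With the replicate number as a block, the members' median was -0.15 and 11 of the 27 were positive.

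**Figure D4:**
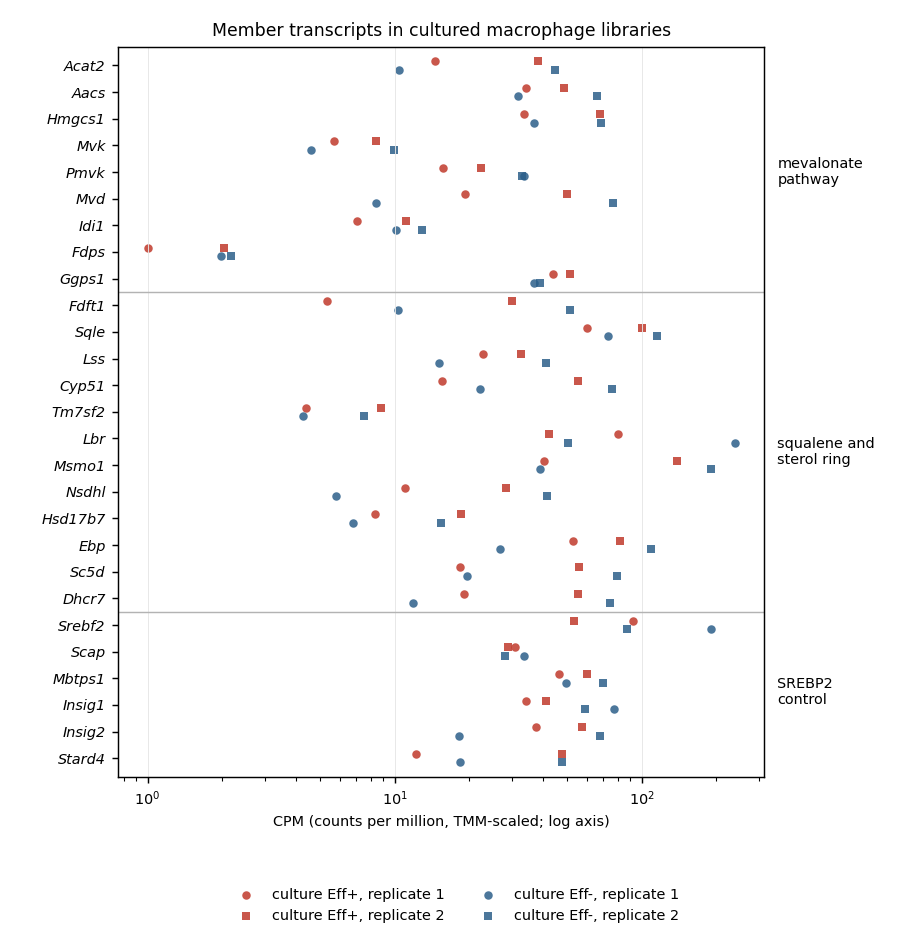
CPM (log axis) of the 27 genes in each culture library, Eff+ in red above Eff- in blue, with circles for replicate 1 and squares for replicate 2. For 22 genes both squares lie right of the circle of the same colour, while Insig1 and Pmvk have both red points left of both blue points.

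Only 3 members did not overlap between the culture groups (11.1%, against 20.7% of all tested genes, 11.3% with Eff+ above and 9.42% with Eff+ below). Insig1 was at 33.9 and 40.9 CPM in Eff+ libraries 1 and 2, against 77.2 and 59.2 CPM in Eff- libraries (log2 fold change -0.87, SE 0.39). Pmvk was at 15.7 and 22.3 CPM in Eff+ libraries, against 33.5 and 32.7 CPM in Eff- libraries (-0.80, SE 0.40). Ggps1 was at 43.9 and 51.2 CPM in Eff+ libraries, against 36.5 and 38.8 CPM in Eff- libraries (0.34, SE 0.36). None of the 3 passed, and the other 24 members overlapped between the groups.

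Srebf2 in culture had 92.0 and 53.2 CPM in Eff+ libraries, against 191 and 87.0 CPM in Eff- libraries. Its Eff+ library was the lower one within each number, yet the groups overlapped and the log2 fold change was -0.93 (SE 0.58). The classical targets Hmgcs1, at 33.4 and 67.6 CPM in Eff+ and 36.6 and 68.4 CPM in Eff-, and Sqle, at 60.2 and 101 CPM in Eff+ and 73.4 and 115 CPM in Eff-, differed more between replicate numbers than between groups. Lbr was at 80.6 and 42.0 CPM in Eff+ libraries, against 239 and 50.3 CPM in Eff- libraries (-1.24, SE 0.85). Its log2 ratio was -1.56 within replicate 1 and -0.26 within replicate 2. In a fit without Eff- library 1, which leaves the replicate numbers unbalanced, its log2 fold change was 0.32. Dendritic cell markers took 0.0611% of counts in that library, against 0.00427, 0.00150 and 0.0164% in Eff+ libraries 1 and 2 and Eff- library 2, and 7 of 8 were tested. Their part in these values was not tested. Insig2 was at 37.3 and 57.2 CPM in Eff+ and 18.2 and 67.8 CPM in Eff- libraries, and Scap at 30.7 and 28.8 CPM in Eff+ and 33.4 and 28.1 CPM in Eff- libraries. Among the ring enzymes, Cyp51 was at 15.6 and 55.4 CPM in Eff+ and 22.1 and 75.9 CPM in Eff- libraries, Msmo1 at 40.1 and 139 CPM in Eff+ and 38.8 and 192 CPM in Eff- libraries and Dhcr7 at 19.1 and 55.2 CPM in Eff+ and 11.9 and 74.5 CPM in Eff- libraries, each with the replicate 2 library higher in both groups. Ebp showed opposite orders in the 2 replicate numbers, at 52.8 and 82.2 CPM in Eff+ and 26.7 and 109 CPM in Eff- libraries. The same held for Mvd, at 19.2 and 49.97 CPM in Eff+ and 8.44 and 76.4 CPM in Eff- libraries, and Nsdhl, at 11.05 and 28.3 CPM in Eff+ and 5.79 and 41.4 CPM in Eff- libraries. Sc5d was at 18.5 and 55.6 CPM in Eff+ and 19.6 and 79.3 CPM in Eff- libraries (-0.42, SE 0.87), and Aacs at 34.0 and 48.5 CPM in Eff+ and 31.7 and 66.1 CPM in Eff- libraries (-0.24, SE 0.51).

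Whether the difference between Eff+ and Eff- was itself different in the wound and in culture was tested in one fit over all 10 libraries. The test called 0 of 20270 genes (0%) by edgeR, 2222 of them at an unadjusted p below 0.05, while DESeq2 called 606. No member passed in these fits, and 3 had an unadjusted p below 0.05. For Lbr the wound log2 fold change exceeded the culture one by 2.50 (SE 0.79, edgeR adjusted p = 0.30), for Sc5d by 2.17 (SE 0.79, adjusted p = 0.36) and for Srebf2 by 1.83 (SE 0.76, adjusted p = 0.41). For Aacs the difference was 1.016 (SE 0.48, adjusted p = 0.47). Without a filter on low counts, Sc5d (2.13, edgeR adjusted p = 0.0193) and Lbr (2.44, adjusted p = 0.00409) passed, as did 517 of 47493 genes. The same 2 members passed with the replicate number as a block, Sc5d at 2.02 (edgeR adjusted p = 0.0248) and Lbr at 2.19 (adjusted p = 0.0317). In that fit 441 of 20270 genes passed. Without culture Eff- library 2, that group was left with replicate 1 alone, so the replicate numbers were unbalanced. The difference was then 3.18 for Lbr, 2.24 for Srebf2, 0.77 for Sc5d and 0.34 for Aacs. In that fit 9 of the 27 members were above 0, against 16 with all libraries.

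Levels of different genes were compared per exon length, as TPM (counts per exon length, scaled to the same sum in every library) computed from the deposited counts without TMM scaling. The median member averaged 9.48 TPM in wound Eff+ and 10.1 TPM in wound Eff- libraries. In culture it averaged 21.3 TPM in Eff+ and 27.03 TPM in Eff- libraries. Lbr (98.2 TPM), Sc5d (47.8) and Ebp (40.3) led in wound Eff+, and Ebp (78.0), Lbr (56.9) and Insig1 (40.0) in wound Eff-. In culture Eff+ the order began with Ebp (81.4), Mvd (50.2) and Sqle (40.2), and in culture Eff- with Lbr (116), Ebp (78.0) and Insig1 (73.8). The lead of Lbr in culture Eff- came from 209 TPM in library 1, with 24.2 in library 2. Neighbours in these orders often lay within each other's spread.

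Several members that were scarce in the wound were plain in culture. Lss was at 0.104 to 0.609 TPM in wound Eff+ and 0.458 to 0.645 TPM in wound Eff- libraries, and at 6.88 and 7.49 TPM in culture Eff+ and 5.81 and 8.70 TPM in culture Eff- libraries. Sqle was at 2.14 to 7.69 TPM in wound Eff+ and 3.29 to 8.48 TPM in wound Eff- libraries, and at 35.4 and 45.1 TPM in culture Eff+ and 55.0 and 47.6 TPM in culture Eff- libraries. Scap averaged 1.28 and 1.86 TPM in wound Eff+ and Eff-, and 11.5 and 13.6 TPM in culture Eff+ and Eff-. For 13 of the 27 genes every wound library was below every culture library, and for none was every wound library above, while among 13510 genes that averaged at least 1 TPM these shares were 32.0% below in the wound and 8.14% above. Tissue and genotype differ between the models, and how the culture reads were counted is not known, so the source of these differences cannot be told apart, and no test was made.

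**Figure D5:**
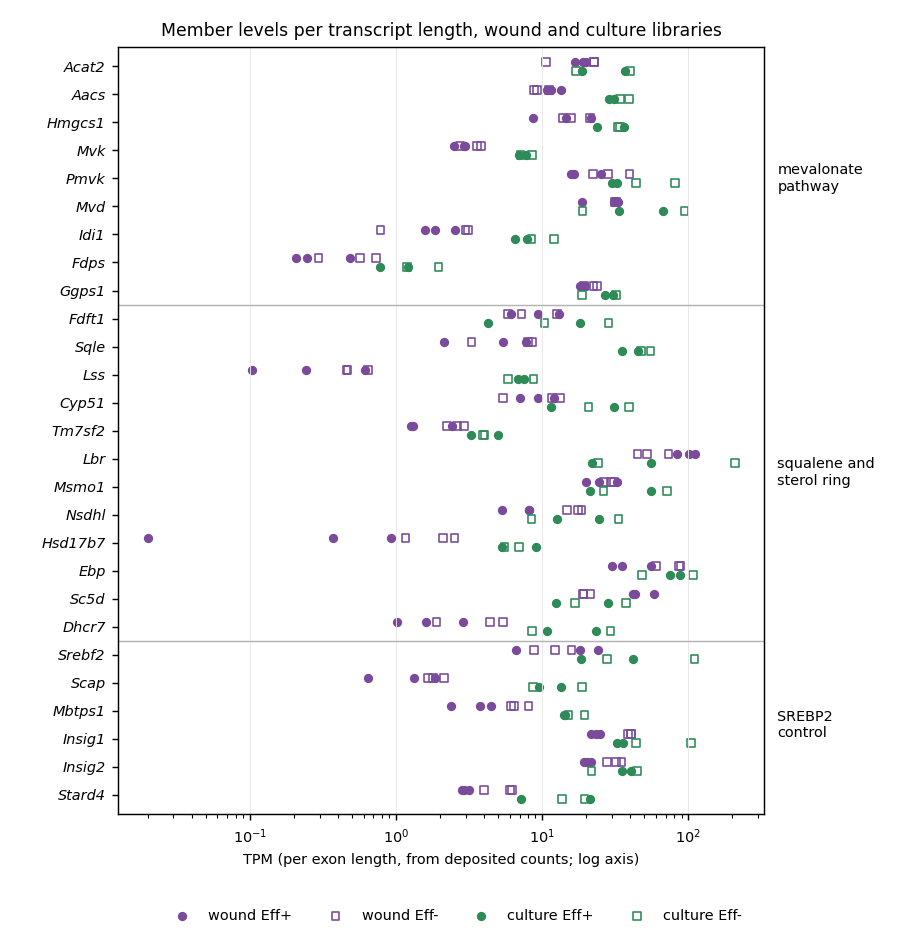
TPM (log axis) of the 27 genes in each library, wound in purple above culture in green, with filled circles for Eff+ and open squares for Eff-. Lss, Sqle and Scap show wide gaps between the models, and the 3 wound Eff+ points of Sc5d lie above all 4 culture points.

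Neighbouring branches of lipid metabolism were described from the same wound fit. Of 17 genes for sterol uptake, lysosomal release and esterification, 4 fell in wound Eff+ libraries and none rose (median log2 fold change -0.27). Of all tested genes, 3.79% fell and 7.39% rose. Among the 4 were the scavenger receptor gene Msr1 at -0.98 (SE 0.23) and the endocytic receptor gene Lrp1 at -0.97 (SE 0.26). Npc2, which encodes a lysosomal cholesterol-binding protein, also fell, at -0.76 (SE 0.20). Of 11 oxysterol and LXR genes 3 fell (median -0.05). These were Pltp at -1.39 (SE 0.17), Nr1h3, which encodes LXR alpha, at -1.15 (SE 0.22), and Apoe at -1.10 (SE 0.23). Erlin2, whose product takes part in sterol-driven degradation in the endoplasmic reticulum, fell by 0.81 (SE 0.18), the only call among 12 further sterol sensing and degradation genes (median -0.18). No gene of the fatty acid arm of the SREBP system passed, with 13 of 17 tested (median -0.16), and Srebf1 was at -0.49 (SE 0.27). None of 16 genes of the prenyl, dolichol and ubiquinone branches passed, 14 of them with negative values (median -0.38). In the same Eff+ libraries 6 of 12 macrophage markers fell, and neutrophil, fibroblast and keratinocyte markers rose, as given above. Their part in these falls was not tested. In culture no gene of these lists was called.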

How the data were processed

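Gene-level counts were analysed for 10 mouse libraries, grouped by their titles. The authors deposited raw read counts per gene. Wound reads were counted with featureCounts 1.6.0 at default settings on the Ensembl release 106 annotation of GRCm39, per the file headers, a command with no strand option, so antisense neighbours cannot be told apart. By default, reads that overlap several genes or map to several places are not assigned. For the culture table no counting command was found, and no source used here gives the aligner. Per the submitters' processing notes, the tools include Trimmomatic 0.39 and the build GRCm39. Another 4 columns of the culture table match no label and were not used. Exon lengths are those of the deposited wound table. Symbols came from GENCODE vM21, which named 52081 of 55414 identifiers.

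Each model was fitted alone on its whole table with edgeR 4.0.16 in R 4.3.3 (TMM scaling, filterByExpr, quasi-likelihood test of Eff+ against Eff-, Benjamini-Hochberg adjustment, threshold 0.05), and the difference between models over all 10 libraries. Each SE was obtained as the log2 fold change over the root of the F statistic. Ratios within a replicate number used a pseudocount of 0.5 CPM. Alternatives were other scalings, DESeq2 1.42.0, no filter, a replicate block, other-cell marker genes left out, and each library left out. The members and lists were chosen with earlier results of these data known. All 27 members are named, and at most 3 called genes of each other list. The procedure was tested on simulated counts.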

Additional observations from a re-analysis of the deposited data

How the results depend on the processing

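With library totals as the only scaling, 6 members were called in the wound, their median log2 fold change was -0.33, and 3368 genes were called, against 1666 with TMM. That scaling turned the sign of uncalled members in the wound: Cyp51 to -0.040, Ggps1 to -0.15, Hmgcs1 to -0.12, Idi1 to -0.16, Msmo1 to -0.12, Mvd to -0.15, Mvk to -0.21 and Sqle to -0.33. DESeq2 called 3216 genes in the wound, with the same 3 members, and 1 in culture. Without a filter on low counts Aacs was not called (adjusted p = 0.076), 2 genes were called in culture, and 2 members, Sc5d and Lbr, differed between the models. With the replicate number as a block, 2985 genes were called in the wound, Nsdhl (-0.80) passing beside the same 3 members, 48 genes in culture, none a member, and 441 genes, among them 2 members, Sc5d (adjusted p = 0.0248) and Lbr (adjusted p = 0.0317), differed between the models. No label pairs the numbers. The count columns of both culture libraries numbered 2 end in 1, while those numbered 1 do not. Deviations from the group mean had correlations of 0.48, 0.03 and 0.28 between same-numbered wound libraries 1, 2 and 3. Differently numbered wound pairs had correlations of -0.40 to 0.18, the highest between Eff+ library 2 and Eff- library 3. In culture the correlation of same-numbered libraries was 0.74. With the longer exact form of the motif, 0 member windows held a match.

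With a library left out, the wound count of members called ranged from 0 to 3 and that of genes from 0 to 1347, the culture count of genes from 0 to 27 and the culture members' median from -0.61 to 0.93, where the lone library of a group is assumed to vary like the others. From 0 to 5 members differed between the models, 5 without culture Eff- library 2, where 2009 genes were called, and 0 with any other library left out. In culture 4 members were positive with all libraries, 20 without Eff+ library 1 and 22 without Eff- library 2. The last 2 of these fits leave the replicate numbers unbalanced. Of log2 fold changes that turned sign, those in the wound ran from -0.16 to 0.58 for Hmgcs1, -0.28 to 0.43 for Sqle, -0.16 to 0.50 for Idi1, -0.43 to 0.043 for Pmvk, -1.07 to 0.12 for Lss and -0.39 to 0.22 for Scap. Among the culture members with a fold change given in the text, they ran from -1.39 to 1.22 for Sc5d, -1.74 to 0.32 for Lbr and -0.65 to 0.67 for Aacs. Fdps was at 0.042 in the fit without both wound libraries numbered 2. The cause of these changes was not tested. Low counts limit Fdps, Hsd17b7 and Lss.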
